A study of Mus musculus with 8 samples.

Results

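Melanocyte stem cells sorted at 21 days of age from mice with B-raf and C-raf knocked out were compared with melanoblasts sorted from wild-type pups of 4 days. The comparison used 6 of the 8 arrays of the series and the 22180 genes that the array's annotation names by a single symbol, with 1 probe set per gene. The young group, P4_WT, holds 2 arrays from mice of genotype B-raf +/+; C-raf +/+, and the knockout group, P21_KO, holds 4 arrays from mice homozygous for floxed alleles of both genes (B-raf fl/fl and C-raf fl/fl). A further 2 arrays, P21_WT, come from 21-day-old mice with the wild-type alleles and did not enter the comparison, but their values are given beside it. Mice of each group carried Tyr::Cre, a transgene that expresses Cre recombinase from the tyrosinase promoter, and Z/EG, a reporter that makes green fluorescent protein (GFP) once Cre has acted, on a mixed C57Bl/6 and 129/Sv background. Cells that were GFP-positive and lacked p75, the nerve growth factor receptor that marks glia and their precursors, were sorted from skin digested with collagenase IV and dispase, and their RNA was amplified before labelling. Age and genotype change together between P21_KO and P4_WT, so their effects cannot be told apart in this comparison. A number common to the labels of P21_KO replicates 2, 3 and 4 has no stated meaning, and if these arrays do not come from separate animals the p-values are too small.

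Melanoblasts are the neural crest-derived precursors of pigment cells, which divide and migrate through the skin into growing hair follicles. Some of them differentiate into melanocytes that pass melanin to the hair shaft, and others become melanocyte stem cells, which rest in the follicle bulge and germ and make a new set of pigment cells when the follicle enters its next growth phase. B-RAF and C-RAF are kinases that pass signals from receptors such as KIT through MEK to ERK, and ERK acts on proliferation, survival and the level of the lineage factor MITF. Schwann cell precursors, which run along the nerves of the skin, share the neural crest origin and can give rise to melanocytes.

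Values are on the log2 scale of RMA, on which a difference of 1 is a doubling, and a gene was called when limma's test of P21_KO minus P4_WT had an adjusted p under 0.05. Arrays of P21_KO correlated with each other at 0.954 to 0.974 across genes, the 2 P4_WT arrays at 0.962, and arrays of the different groups at 0.910 to 0.938. P4_WT replicate 2 stood apart in sex-linked genes and in markers of other cells. It read 8.938 for Xist and 1.943 for the Y-linked Eif2s3y, against 2.175 to 2.775 and 6.922 to 7.866 on the other compared arrays. By these genes this array is female and the others male, and the fits did not model sex. The mean of P4_WT replicate 2 over 16 macrophage, dendritic and T cell genes was 5.06, against 2.97 in P4_WT replicate 1 and 3.06 to 3.43 in P21_KO. Its mean over 13 endothelial genes was 5.17, against 3.47 and 3.20 to 3.42, and its mean over 7 mast cell genes was 4.69, against 2.25 and 2.21 to 2.44. P4_WT replicate 1 in turn had the highest mean over 14 hair shaft and inner root sheath genes, at 5.22, against 3.86 in replicate 2 and 2.84 to 2.92 in P21_KO. Means over 14 keratinocyte genes overlapped, at 5.58 and 6.42 in P4_WT and 5.97 to 6.86 in P21_KO. RMA gives no gene a value of 0; the arrays' median over the genes tested was 3.37 in P21_KO, and genes below it are close to background.

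**Figure D1:**
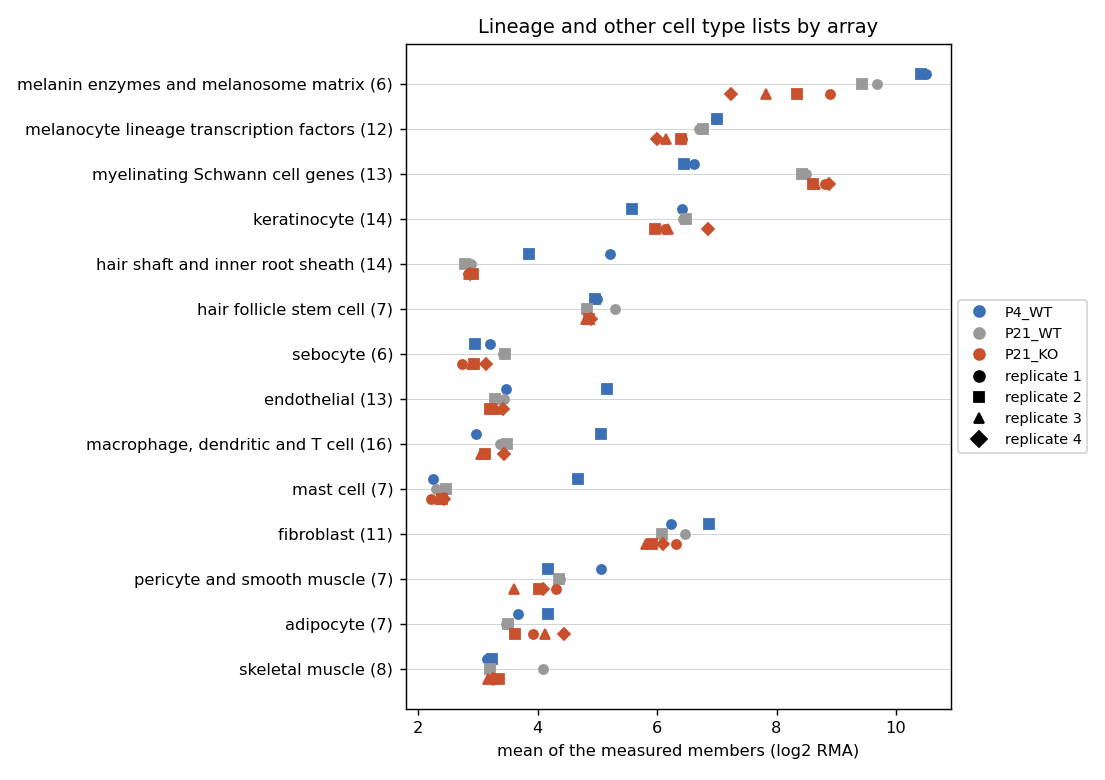
Mean log2 RMA value of the measured members of each list (number in brackets) on each of the 8 arrays, coloured by group and with a symbol for each replicate number. The melanin list was lower and the myelin list higher on the 4 P21_KO arrays than on both P4_WT arrays, and P4_WT replicate 2 lay to the right of the other arrays in the endothelial, macrophage and mast cell lists.

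Of the 22180 genes, 1484 (6.69%) were called, 621 (2.80%) higher and 863 (3.89%) lower in P21_KO. The list counts below are to be read beside these shares, and in short lists they rest on few genes. Without adjustment, 4402 genes (19.8%) had a limma p under 0.05. The groups did not overlap in 3143 genes (14.2%) with P21_KO higher and in 3427 (15.5%) with P21_KO lower, each called gene among them. Among the called genes, 505 rises and 674 falls were of at least 1 log2 unit. Unnamed gene models and the other classes given under processing were left out of the ranking by size. The largest rise of the called genes ranked was that of Kcnk1, a two-pore-domain potassium channel. It read 3.48 and 3.08 in P4_WT and 7.52, 7.84, 8.06 and 7.52 in P21_KO. The 4 knockout arrays lay far above both young arrays, a change of 4.46 ± 0.22 (SE; limma adjusted p = 0.000441). The purinergic receptor P2ry2 rose by 3.72 ± 0.29, from 3.29 and 3.80 to 6.75, 7.23, 7.76 and 7.34. Rasgef1a, a guanine nucleotide exchange factor for RAS-family proteins, rose by 3.70 ± 0.26, from 2.89 and 2.16 to 6.08, 6.02, 6.20 and 6.61. All 3 genes moved from near background to clear signal on each knockout array, so the sizes of their rises are likely to be understated and give no firm order. The chloride channel Clcn2 rose by 3.71 ± 0.46 and Fam83f by 3.15 ± 0.22. Serpinb2, an inhibitor of plasminogen activators, rose by 3.17 ± 0.41 and the amino acid carrier Slc36a2 by 3.53 ± 0.32. Rises of Defb6, a beta-defensin (4.01 ± 0.57), of the epidermal keratin Krt77 (3.45 ± 0.51) and of Clca3a2 (3.21 ± 0.54) were also among the 12 largest. These last 3 calls each failed without P4_WT replicate 1, with limma adjusted p = 0.0618, 0.0682 and 0.0776. Krt77 also missed the threshold without P4_WT replicate 2 (adjusted p = 0.0543 by limma) and Clca3a2 without P21_KO replicate 3 (0.0526).

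Among the falls, Oca2, a melanosomal anion channel whose loss causes albinism, went from 8.79 and 8.18 in P4_WT to 3.31, 3.53, 3.20 and 3.05 in P21_KO. Slc24a4, a potassium-dependent sodium-calcium exchanger linked to hair and eye colour in people, went from 8.20 and 7.92 to 2.83, 2.47, 3.44 and 3.27. Both genes were bright on the young arrays and close to background on the knockout arrays, with changes of -5.21 ± 0.22 and -5.06 ± 0.29 (SE; limma adjusted p = 0.000441 for each), which near the floor are likely to be understated. Slc7a8, a neutral amino acid transporter, fell by 4.47 ± 0.52 and Gap43, a protein of growing neurites and immature glia, by 4.27 ± 0.33. The stefins Stfa3 and Stfa1, cysteine protease inhibitors with near-identical copies whose signals may mix, differed by -6.30 ± 1.20 and -5.58 ± 0.58. Stfa3 varied widely within P21_KO, at 3.54, 1.99, 2.11 and 6.57, and its call held in 1 of the 6 fits that left out an array, with limma adjusted p of up to 0.127. The linker histone H1f5, which also has close copies, differed by -4.29 ± 0.97 and kept its call in 2 of these 6 fits (up to 0.188). S100a8, a calcium-binding protein of neutrophils, differed by -4.16 ± 0.96, and its call also held in 1 of these 6 fits. Without P4_WT replicate 2, where it read 9.50 against 6.76 in replicate 1, the S100a8 change was -2.79 (limma adjusted p = 0.245). Npy, neuropeptide Y, fell by 4.09 ± 0.65 and lost its call without either P4_WT array (limma adjusted p = 0.0776 and 0.0773). The inner root sheath keratins Krt71 and Krt27 fell by 4.37 ± 0.67 and 4.35 ± 0.63. They read 8.21 and 8.30 in P4_WT replicate 1, 5.42 and 5.63 in replicate 2, and at most 2.87 in P21_KO, so they follow the hair shaft list described above. That list had 6 of 14 members called lower and none called higher, and it had 8 lower without P4_WT replicate 2, 4 without P4_WT replicate 1 and 3 without any 1 of the P21_KO arrays. It had 1 with P21_KO replicates 2 to 4 averaged. The hair shaft list was higher on both P4_WT arrays than on the P21_KO arrays, as were the called falls below. Between the P4_WT arrays, the melanin and melanosome lists were also higher in replicate 1, whereas the mitosis and replication lists were higher in replicate 2. The part of hair shaft signal in the other falls was not tested.

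**Figure D2:**
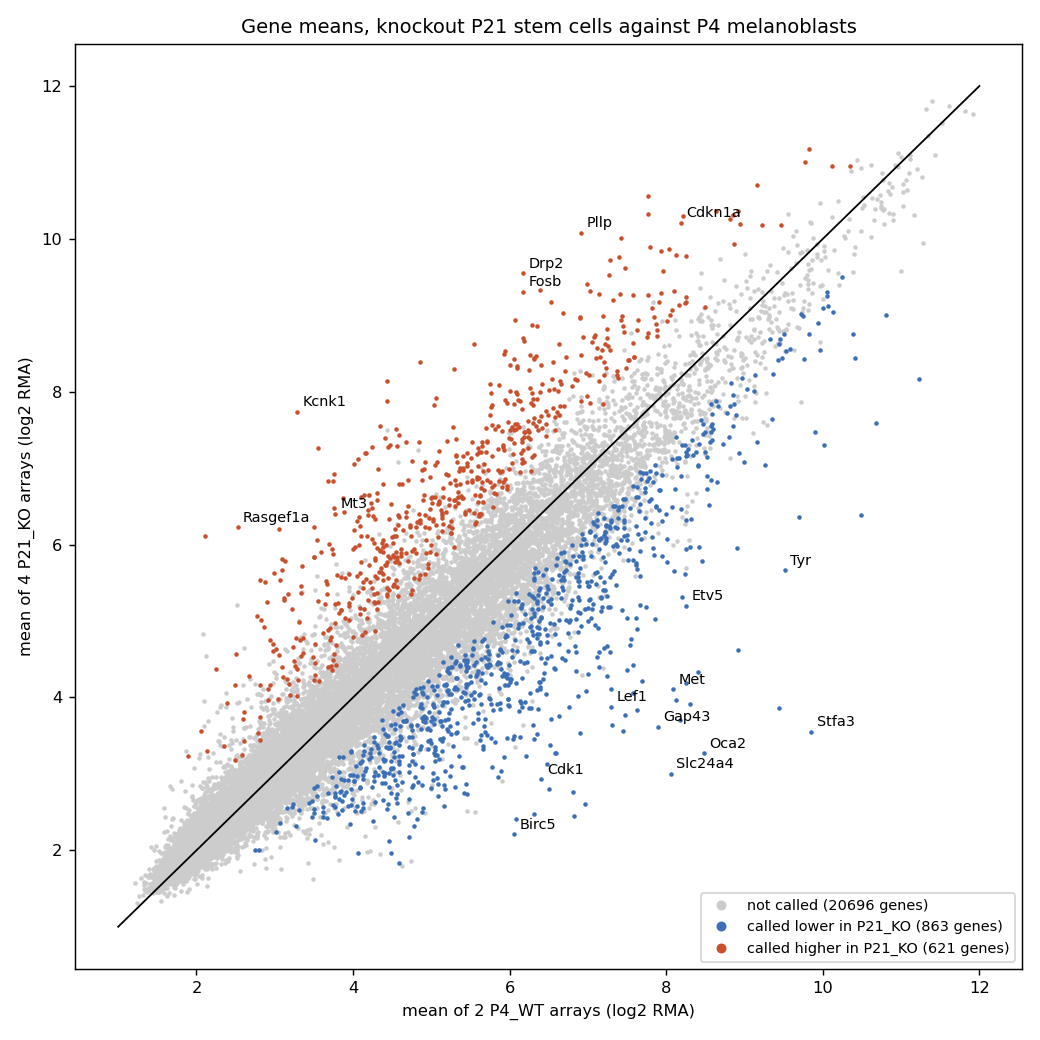
Mean log2 RMA value of each of the 22180 genes over the 2 P4_WT arrays (x) and the 4 P21_KO arrays (y); red points are the 621 genes called higher, blue points the 863 called lower, and the line marks equal means. Kcnk1, Drp2 and Pllp stand well above the line, and Oca2, Slc24a4 and Birc5 well below it.

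Genes of cell division fell together. Of 33 mitosis genes measured, 30 were called lower and none higher, with a median change of -2.17 against 0.02 over the genes tested, and the remaining 3 had negative changes as well. Mki67, the proliferation antigen Ki-67, read 7.50 and 7.86 in P4_WT and 4.94, 3.82, 3.76 and 4.32 in P21_KO. The knockout arrays were each lower than both young arrays, a change of -3.47 ± 0.34 (SE; limma adjusted p = 0.00273). Birc5, the survivin subunit of the chromosomal passenger complex, read 5.89 and 6.23 against 2.32, 2.06, 2.19 and 2.27, a change of -3.85 ± 0.16. Cdk1, the kinase that drives entry into mitosis, read 6.36 and 6.45 against 3.15, 2.72, 2.84 and 3.00, a change of -3.48 ± 0.17. Ccnb2, a cyclin partner of CDK1, read 7.70 and 7.54 against 4.08, 3.63, 3.61 and 4.02, a change of -3.79 ± 0.20. Birc5 and Cdk1 thus fell to values below the arrays' median, while Ccnb2 stayed just above it. Top2a, the topoisomerase that untangles sister chromatids, fell by 3.70 ± 0.30, Ccna2, cyclin A, by 2.69 ± 0.23, and Tpx2, which activates Aurora A on the spindle, by 2.47 ± 0.18. P21_WT arrays were also low, with Mki67 at 4.76 and 4.82 and Cdk1 at 3.73 and 3.60, and P21_KO and P21_WT did not differ beyond limma's threshold for either gene (-0.58, adjusted p = 0.855, and -0.73, adjusted p = 0.483). Between 24 and 28 mitosis genes were called lower when 1 array was left out, and 26 with P21_KO replicates 2 to 4 averaged.

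The proximal promoters of mitosis genes often carry a CCAAT box and a cell cycle homology region (CHR), the elements bound by NF-Y and by the DREAM and MuvB complexes in dividing and resting cells. The sequences of the 3 mitosis genes with the smallest p are shown for comparison, 250 bases before to 50 after the RefSeq gene start on GRCm38.p6, 5′ to 3′ on the gene's strand. Capitals mark CCAAT (or its reverse complement ATTGG) and the CHR letters TTTGAA or TTCGAA on either strand; the searched motifs do not overlap one another in these windows.
Birc5: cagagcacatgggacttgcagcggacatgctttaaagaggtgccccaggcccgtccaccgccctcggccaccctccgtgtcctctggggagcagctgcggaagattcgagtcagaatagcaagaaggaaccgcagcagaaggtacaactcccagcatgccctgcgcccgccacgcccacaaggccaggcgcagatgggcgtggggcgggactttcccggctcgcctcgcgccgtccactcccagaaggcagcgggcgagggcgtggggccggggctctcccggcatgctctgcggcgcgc
Cdk1: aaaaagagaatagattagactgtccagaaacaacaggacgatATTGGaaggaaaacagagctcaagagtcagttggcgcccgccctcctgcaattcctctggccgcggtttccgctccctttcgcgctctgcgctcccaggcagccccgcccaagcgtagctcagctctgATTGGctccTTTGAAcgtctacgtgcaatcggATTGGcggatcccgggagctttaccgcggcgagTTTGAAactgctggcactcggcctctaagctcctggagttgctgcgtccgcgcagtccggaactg
Ccnb2: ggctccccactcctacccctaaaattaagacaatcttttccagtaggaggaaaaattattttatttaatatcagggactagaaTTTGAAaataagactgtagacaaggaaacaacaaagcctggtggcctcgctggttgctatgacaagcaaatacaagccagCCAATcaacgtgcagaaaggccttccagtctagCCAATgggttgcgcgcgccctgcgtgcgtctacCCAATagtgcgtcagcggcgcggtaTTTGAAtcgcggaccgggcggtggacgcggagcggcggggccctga
The windows lie at chr11:117848987-117849286 (+) for Birc5, chr10:69352863-69353162 (-) for Cdk1 and chr9:70421505-70421804 (-) for Ccnb2. Cdk1 and Ccnb2 each held 5 matches, 3 of CCAAT and 2 of the CHR, and these letters did not occur in the Birc5 window. Among the 26 called mitosis genes with a RefSeq window, 20 (76.9%) held both motifs, against 1208 of 16990 tested genes (7.11%) and 79 of 686 called lower (11.5%). The CHR letters were in 22 of the 26 (84.6%) and in 17.4% of the tested genes, and CCAAT in 21 (80.8%) and 38.5%. A match is a run of letters and not a measured binding site.

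DNA replication genes were lower as well, with 15 of 28 called lower, none higher, and a median change of -0.92. Rrm2, the regulated subunit of ribonucleotide reductase, read 8.34 and 8.25 in P4_WT and 4.15, 4.21, 4.25 and 3.06 in P21_KO. It fell by 4.38 ± 0.35 (SE; limma adjusted p = 0.00131), more than any other member of the list. Mcm6 and Mcm2, subunits of the replicative helicase, fell by 1.97 ± 0.24 and 1.62 ± 0.21. Uhrf1, which carries DNA methylation through replication, fell by 2.65 ± 0.40, but missed the threshold without P4_WT replicate 2 (limma adjusted p = 0.0773). The count of replication genes called lower was 4 without P4_WT replicate 2, 6 without P4_WT replicate 1, and 7 or 8 without any 1 of the P21_KO arrays, so it depended on each array more than the mitosis count did. It was 9 with P21_KO replicates 2 to 4 averaged.

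Of 19 genes of the G1 gate (D cyclins, their kinases, Myc and the Rb-E2F proteins), 7 were called lower and none higher. Ccnd2, cyclin D2, read 8.37 and 8.05 in P4_WT and 6.05, 5.21, 4.75 and 5.27 in P21_KO, a fall of 2.89 ± 0.34 (SE; limma adjusted p = 0.00478). The knockout arrays lay clear below the young ones. E2f8, a repressor E2F made in S phase, fell by 2.32 ± 0.14. Rbl1 (p107), Cdk4 and Cdk2 fell by 1.09 ± 0.16, 1.94 ± 0.30 and 1.73 ± 0.31. Rbl1 lost its call without P4_WT replicate 2 (limma adjusted p = 0.0753), and Cdk4 and Cdk2 lost theirs without either P4_WT array (0.0709 and 0.0694, and 0.0779 and 0.116). Myc read 6.84 and 7.14 in P4_WT and 6.95, 7.29, 7.28 and 6.58 in P21_KO, and the groups overlapped. The list had 4 genes called lower without either P4_WT array.

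Inhibitors of cyclin-dependent kinases and genes linked to quiescence moved the other way for some members, with 6 of 20 called higher and none lower. Cdkn1a (p21) read 8.16 and 8.21 in P4_WT and 10.30, 10.31, 10.13 and 10.11 in P21_KO, a rise of 2.03 ± 0.15 or 4.08-fold (limma adjusted p = 0.000987). Cdkn1b (p27) read 7.97 and 7.89 against 9.26, 9.52, 9.15 and 9.23, a rise of 1.36 ± 0.16. In both genes the 4 knockout values lay close together and clear of the young ones. Klf9, a Krüppel-like factor, rose by 2.26 ± 0.20 and Tob1, an antiproliferative adaptor of the BTG family, by 1.37 ± 0.19; the call of Tob1 failed without P4_WT replicate 2 (limma adjusted p = 0.0527). The remaining 14 members did not pass the test, Cdkn2a among them, and the list's median change was 0.15. The list had 4 genes called higher without P4_WT replicate 1 and 4 without P21_KO replicate 3.

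Pigment genes were lower in the knockout stem cells. Of 6 genes for melanin enzymes and the melanosome matrix, 4 were called lower (median change -2.34), and of 22 for melanosome transport, biogenesis and ion channels, 10 were called lower (median change -1.23), with none called higher in either list. Tyr, tyrosinase, the rate-limiting enzyme of melanin synthesis, read 9.59 and 9.44 in P4_WT and 6.36, 5.90, 5.39 and 5.02 in P21_KO. The groups were more than 3 units apart, and the fall of 3.85 ± 0.35 (14.4-fold) passed the test (limma adjusted p = 0.00209). P21_WT lay between them, at 7.88 and 7.27. Pmel, the amyloid scaffold of the melanosome, read 10.77 and 10.59 against 8.61, 8.08, 7.38 and 6.31, and Mlana, a melanosome maturation protein, read 11.32 and 11.14 against 9.57, 8.00, 7.68 and 7.43. Both remained well above background in each knockout array, but spread over about 2 units within the group. Their changes were -3.08 ± 0.57 and -3.06 ± 0.55, and that of the melanin enzyme Tyrp1 was -1.62 ± 0.29. These 3 calls failed without either P4_WT array and without P21_KO replicate 3, with limma adjusted p of up to 0.119 for Pmel, 0.113 for Mlana and 0.116 for Tyrp1, and that of Mlana also without P21_KO replicate 2 (0.0559). Tyr was the 1 melanin gene called without either P4_WT array or without P21_KO replicate 3, and 1 gene of the list was also called with P21_KO replicates 2 to 4 averaged. Dct, the dopachrome tautomerase already made by early melanoblasts, read 10.99 and 11.02 against 10.24, 9.96, 9.38 and 8.76; its change of -1.42 ± 0.39 did not pass the test (limma adjusted p = 0.0826).

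Of the melanosome genes, Oca2 fell most. Gpr143, the receptor mutated in ocular albinism, fell by 2.90 ± 0.25, Trpm1, a cation channel of melanocytes and retina, by 3.35 ± 0.29, and Rab38, a small GTPase that delivers melanin enzymes, by 2.33 ± 0.26. Mc1r, the receptor for melanocyte-stimulating hormone, read 8.45 and 8.06 in P4_WT and 4.88, 4.28, 4.55 and 3.02 in P21_KO, a fall of 4.07 ± 0.48 (SE; limma adjusted p = 0.00485). Slc45a2, a melanosomal transporter, fell by 4.07 ± 0.54, with its call lost without P4_WT replicate 1 (limma adjusted p = 0.0509). The count of the 2 pigment lists together was 14 called lower, and 8, 8 and 9 without P4_WT replicate 1, P4_WT replicate 2 and P21_KO replicate 3. In these sorted populations, fewer pigment-making cells and less RNA per cell cannot be told apart.

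Promoters of pigment genes are known targets of MITF, which binds E-boxes of the M-box type with the core CATGTG. The windows of Oca2 (chr7:56239509-56239808, +) and Trpm1 (chr7:64153585-64153884, +, the first of 2 RefSeq starts) are printed on the same scheme. These are the 2 called pigment genes with the smallest p among those with a window, and both fell to near background. Capitals mark the core or its reverse complement CACATG.
Oca2: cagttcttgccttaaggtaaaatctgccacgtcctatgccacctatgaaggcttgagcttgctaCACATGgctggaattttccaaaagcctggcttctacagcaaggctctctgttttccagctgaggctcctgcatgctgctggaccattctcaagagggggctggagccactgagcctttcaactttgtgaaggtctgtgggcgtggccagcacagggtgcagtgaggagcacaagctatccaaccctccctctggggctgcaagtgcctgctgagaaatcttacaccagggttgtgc
Trpm1: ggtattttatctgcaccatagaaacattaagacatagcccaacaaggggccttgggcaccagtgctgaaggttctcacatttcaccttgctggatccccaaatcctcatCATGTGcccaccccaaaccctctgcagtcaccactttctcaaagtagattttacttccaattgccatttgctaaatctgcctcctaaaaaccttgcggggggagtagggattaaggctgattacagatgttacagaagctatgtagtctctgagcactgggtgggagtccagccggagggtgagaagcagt
Each window held 1 match, starting at position -186 relative to the gene start in Oca2 and at -141 in Trpm1. Of 9 called pigment genes with a window, 6 (66.7%) held the core. So did 8 of the 23 pigment genes measured with a window (34.8%) and 11.6% of the 16990 tested genes. Among all 686 genes called lower with a window, 57 (8.31%) held it.

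Most transcription factors of the lineage did not pass the test. Of 12 measured, 2 were called lower, and 10 changes were negative. Lef1, the nuclear partner of beta-catenin, read 7.32 and 7.26 in P4_WT and 4.15, 4.13, 3.83 and 3.40 in P21_KO, far below both young arrays. It fell by 3.41 ± 0.24 (SE; 10.7-fold; limma adjusted p = 0.000955). Tfap2b, an AP-2 factor of the neural crest, fell by 1.30 ± 0.18, with the call lost without P4_WT replicate 1 (limma adjusted p = 0.0576). Mitf, the regulator of melanocyte identity, read 8.09 and 8.19 in P4_WT, 7.88 and 7.79 in P21_WT and 7.53, 7.61, 6.62 and 6.46 in P21_KO. Its values did not overlap between the compared groups, as in the 15.5% of tested genes that were lower without overlap. The change of -1.08 ± 0.36 was not called (limma adjusted p = 0.142). Sox10, a neural crest factor shared by melanocytes and glia, read 7.23 and 7.43 against 8.22, 8.32, 7.79 and 8.22, a difference of 0.81 ± 0.19 just outside the threshold (limma adjusted p = 0.0528). Pax3, which keeps melanoblasts undifferentiated, read 8.35 and 9.08 against 8.70, 8.51, 7.92 and 7.58, and its groups overlapped. Mitf, Sox10, Pax3 and Dct thus remained above the arrays' median on each of the 6 arrays.

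Among 8 receptors and ligands of the lineage, 2 were called lower and 1 higher, beside 3.89% and 2.80% over the genes tested. Met, the receptor for hepatocyte growth factor, read 8.09 and 8.09 in P4_WT and 4.59, 4.94, 3.49 and 3.39 in P21_KO. The fall of 3.99 ± 0.45 (SE; 15.9-fold) was called (limma adjusted p = 0.0044), and P21_WT stood between the 2 groups, at 6.56 and 6.38. Ednrb, the endothelin receptor needed for melanoblast expansion, read 10.01 and 9.80 against 8.30, 7.81, 7.31 and 6.46, a change of -2.44 ± 0.46. It lost its call without either P4_WT array and without P21_KO replicate 3 (limma adjusted p = 0.128, 0.106 and 0.0731). Kit, the receptor for stem cell factor, read 9.16 and 9.40 against 8.56, 8.02, 7.85 and 5.86; replicate 4 of the knockout group was the lowest, and the change of -1.71 ± 0.67 was not called (limma adjusted p = 0.213). Fgfr1, a fibroblast growth factor receptor, was called higher at 0.79 ± 0.17, a call held in 1 of the 6 fits that left out an array (limma adjusted p of up to 0.161).

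Braf, a target of the knockout, read 5.80 and 6.00 in P4_WT and 6.57, 6.49, 6.30 and 5.66 in P21_KO, and the groups overlapped (0.35 ± 0.27; limma adjusted p = 0.555). This summarised value does not show the knockout, and nothing in the labels says where the probes lie relative to the floxed part, so it does not check the labels. Araf, the third RAF kinase, read 6.09 and 6.73 against 6.84, 6.80, 6.66 and 7.08 (0.44 ± 0.22; limma adjusted p = 0.341). Of 14 RAS-RAF-MEK-ERK components measured, 1 was called, a share close to the 6.69% called over the genes tested. It was Map2k1 (MEK1), at -0.80 ± 0.18, and it held in 1 of 6 fits without an array (limma adjusted p = 0.0919 without P21_KO replicate 2).

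Of 19 ERK targets and feedback genes, 4 were called lower and none higher, with a median change of -0.32. Etv5, an ETS factor induced by ERK, read 8.55 and 7.96 in P4_WT, 8.10 and 7.29 in P21_WT and 5.94, 4.81, 4.98 and 5.06 in P21_KO. The 4 knockout arrays were the lowest, the 2 wild-type groups overlapped, and the fall of 3.06 ± 0.34 from P4_WT was called (limma adjusted p = 0.00423). Ccnd1, cyclin D1, fell by 1.85 ± 0.31, Spry4, a Sprouty inhibitor of RAS signalling, by 2.22 ± 0.42, and Etv1, an ETS factor, by 0.95 ± 0.22. Ccnd1 lost its call without P4_WT replicate 1 or P21_KO replicate 3 (limma adjusted p = 0.105 and 0.0538). Spry4 kept its call in the fit without P4_WT replicate 1 and lost it without any other array (limma adjusted p of up to 0.0637), and Etv1 lost its call in each of the 6 fits (up to 0.205). Dusp6, the ERK phosphatase often read as a measure of pathway output, stood at 9.11 and 9.14 against 9.45, 9.04, 9.52 and 9.25, with overlapping groups (0.19, 95% interval -0.23 to 0.61). The number of ERK targets called was 1 without P21_KO replicate 3, 2 without P4_WT replicate 1 or any of the other 3 knockout arrays, and 3 without P4_WT replicate 2. It was 1 with P21_KO replicates 2 to 4 averaged.

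Immediate early genes, which cells switch on within minutes of a stimulus without new protein synthesis, were higher in P21_KO. Of 20 measured, 15 were called higher and none lower, with a median change of 1.57. Fosb, an AP-1 subunit, read 5.66 and 6.68 in P4_WT and 9.17, 9.42, 9.28 and 9.38 in P21_KO, a rise of 3.14 ± 0.27 or 8.81-fold (limma adjusted p = 0.00176). Fos read 6.52 and 7.55 against 9.26, 9.25, 9.20 and 9.59, and Junb read 6.06 and 7.31 against 8.90, 9.20, 9.02 and 9.03. The knockout arrays agreed closely with each other, and P4_WT replicate 1 was the lowest array in all 3 genes. Fos rose by 2.29 ± 0.29, Junb by 2.35 ± 0.32 and Jun by 1.54 ± 0.21. The orphan nuclear receptors Nr4a1 and Nr4a2 read 8.40 and 8.03, and 7.52 and 7.43, in P4_WT. In P21_KO they read 10.19, 10.27, 10.32 and 10.40, and 9.46, 9.62, 9.88 and 9.52, rises of 2.08 ± 0.16 and 2.14 ± 0.17. The zinc finger factors Egr1 and Egr2 rose by 1.66 ± 0.16 and 2.06 ± 0.17, and the stress-induced factor Atf3 by 2.11 ± 0.23. P21_WT was high too, with Fosb at 9.35 and 8.40 and Nr4a1 at 10.02 and 9.64. The count called higher was 10 to 14 without 1 array and 8 with P21_KO replicates 2 to 4 averaged.

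Many immediate early promoters carry cyclic AMP response elements, bound by CREB, whose half-site is TGACG. The windows of Nr4a1 (chr15:101266596-101266895, +) and Nr4a2 (chr2:57123954-57124253, -), the 2 members of the list with the smallest p, are shown with this core or its reverse complement CGTCA in capitals.
Nr4a1: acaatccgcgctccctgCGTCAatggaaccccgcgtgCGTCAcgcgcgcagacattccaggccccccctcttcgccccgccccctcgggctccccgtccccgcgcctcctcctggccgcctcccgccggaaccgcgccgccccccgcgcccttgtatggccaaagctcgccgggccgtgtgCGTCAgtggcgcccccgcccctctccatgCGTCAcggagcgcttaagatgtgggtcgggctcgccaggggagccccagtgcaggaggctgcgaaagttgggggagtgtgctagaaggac
Nr4a2: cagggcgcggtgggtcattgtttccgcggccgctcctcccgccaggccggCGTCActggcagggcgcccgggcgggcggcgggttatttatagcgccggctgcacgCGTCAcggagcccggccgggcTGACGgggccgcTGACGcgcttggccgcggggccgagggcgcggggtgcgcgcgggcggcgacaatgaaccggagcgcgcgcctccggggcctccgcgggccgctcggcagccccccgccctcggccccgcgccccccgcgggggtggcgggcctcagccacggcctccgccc
Both held 4 matches, starting between positions -233 and -40 relative to the gene start in Nr4a1 and between -200 and -111 in Nr4a2. Of 14 called immediate early genes with a window, 9 (64.3%) held the core, against 10 of 17 measured members (58.8%) and 24.5% of the tested genes. Among all 486 genes called higher with a window, 140 (28.8%) held it.

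Heat shock chaperones rose in part, with 5 of 11 called higher and none lower. Hspa1a and Hspa1b, near-identical inducible HSP70 genes whose signals cannot be separated with certainty, rose by 1.73 ± 0.20 and 1.55 ± 0.19. Hspa1a read 8.36 and 8.90 in P4_WT against 10.16, 10.46, 10.38 and 10.45 in P21_KO (limma adjusted p = 0.00423). The knockout arrays were thus more than 1 unit above both young arrays. The small chaperone Hspb1 rose by 1.36 ± 0.19 and Hsph1, an HSP110 protein, by 1.37 ± 0.28. Hspb1 lost its call without P4_WT replicate 2 (limma adjusted p = 0.058), and Hsph1 without P4_WT replicate 1 or any of P21_KO replicates 2, 3 and 4 (up to 0.16). The list had 3 called in 5 of the fits without an array and 5 in the fit without P21_KO replicate 1, and 2 with P21_KO replicates 2 to 4 averaged. Heat shock and immediate early genes moved together between these groups, and the relation between them was not tested.

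Genes of myelinating Schwann cells rose, with 12 of 13 called higher and a median change of 2.36. Drp2, a dystrophin-related protein of the Schwann cell membrane, read 6.36 and 5.98 in P4_WT and 9.52, 9.72, 9.47 and 9.50 in P21_KO. The knockout arrays were within 0.3 units of one another and far above the young ones, a rise of 3.38 ± 0.17 or 10.4-fold (limma adjusted p = 0.000441). Pllp, the myelin membrane protein plasmolipin, read 7.04 and 6.79 against 10.14, 10.09, 9.87 and 10.23, a rise of 3.17 ± 0.17. Cldn19, a claudin of Schwann cell tight junctions, rose by 2.56 ± 0.14, Fa2h, which hydroxylates myelin lipids, by 2.44 ± 0.16, and the myelin proteolipid Mal by 2.36 ± 0.19. Ncmap, a myelin-associated protein of peripheral nerve, rose by 2.96 ± 0.26. The main structural proteins of myelin rose less on this scale, Pmp22 by 1.23 ± 0.14, Mbp by 1.41 ± 0.19 and Mag by 1.69 ± 0.24. Mag lost its call without P4_WT replicate 2 (limma adjusted p = 0.0618). Egr2, which switches on the myelin programme, is counted here and among the immediate early genes. The list mean was 6.62 and 6.46 in P4_WT, 8.49 and 8.43 in P21_WT and 8.81, 8.61, 8.65 and 8.88 in P21_KO. It moved opposite to the melanin list, whose mean was 10.51 and 10.42, then 9.68 and 9.43, then 8.89, 8.35, 7.82 and 7.23, and the part of a different share of glial cells in either was not tested. The myelin count was 11 or 12 whichever array was left out.

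Immature glial and neural crest genes did not follow the myelin genes, with 3 of 13 called lower and none higher. Gap43 read 7.72 and 8.06 in P4_WT and 4.27, 3.38, 3.75 and 3.07 in P21_KO, and was low in P21_WT too, at 3.20 and 3.07. Fabp7, a fatty acid-binding protein of glial precursors, read 8.98 and 8.82 against 6.99, 6.13, 5.43 and 5.28, a fall of 2.94 ± 0.46. Both genes, like each called gene, had groups that did not overlap, as did 15.5% of the tested genes with P21_KO lower. Fabp7 lost its call without either P4_WT array, with changes of -2.86 without replicate 1 and -3.02 without replicate 2. The integrin subunit Itga4 differed by -1.30 ± 0.26 (limma adjusted p = 0.0305), with the call kept in 1 of the 6 fits without an array. Ngfr, which encodes the p75 used to exclude cells in the sort, read 5.40 and 4.73 in P4_WT and 5.62, 5.47, 4.85 and 4.76 in P21_KO, with no called difference (limma adjusted p = 0.903). S100b, a calcium-binding protein of glia, overlapped as well, at 7.79 and 7.63 against 8.54, 7.13, 8.40 and 8.59. The list had 1 gene called lower without P4_WT replicate 2 and 2 without P4_WT replicate 1 or any of P21_KO replicates 2, 3 and 4. With the last 3 averaged it had 1.

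**Figure D3:**
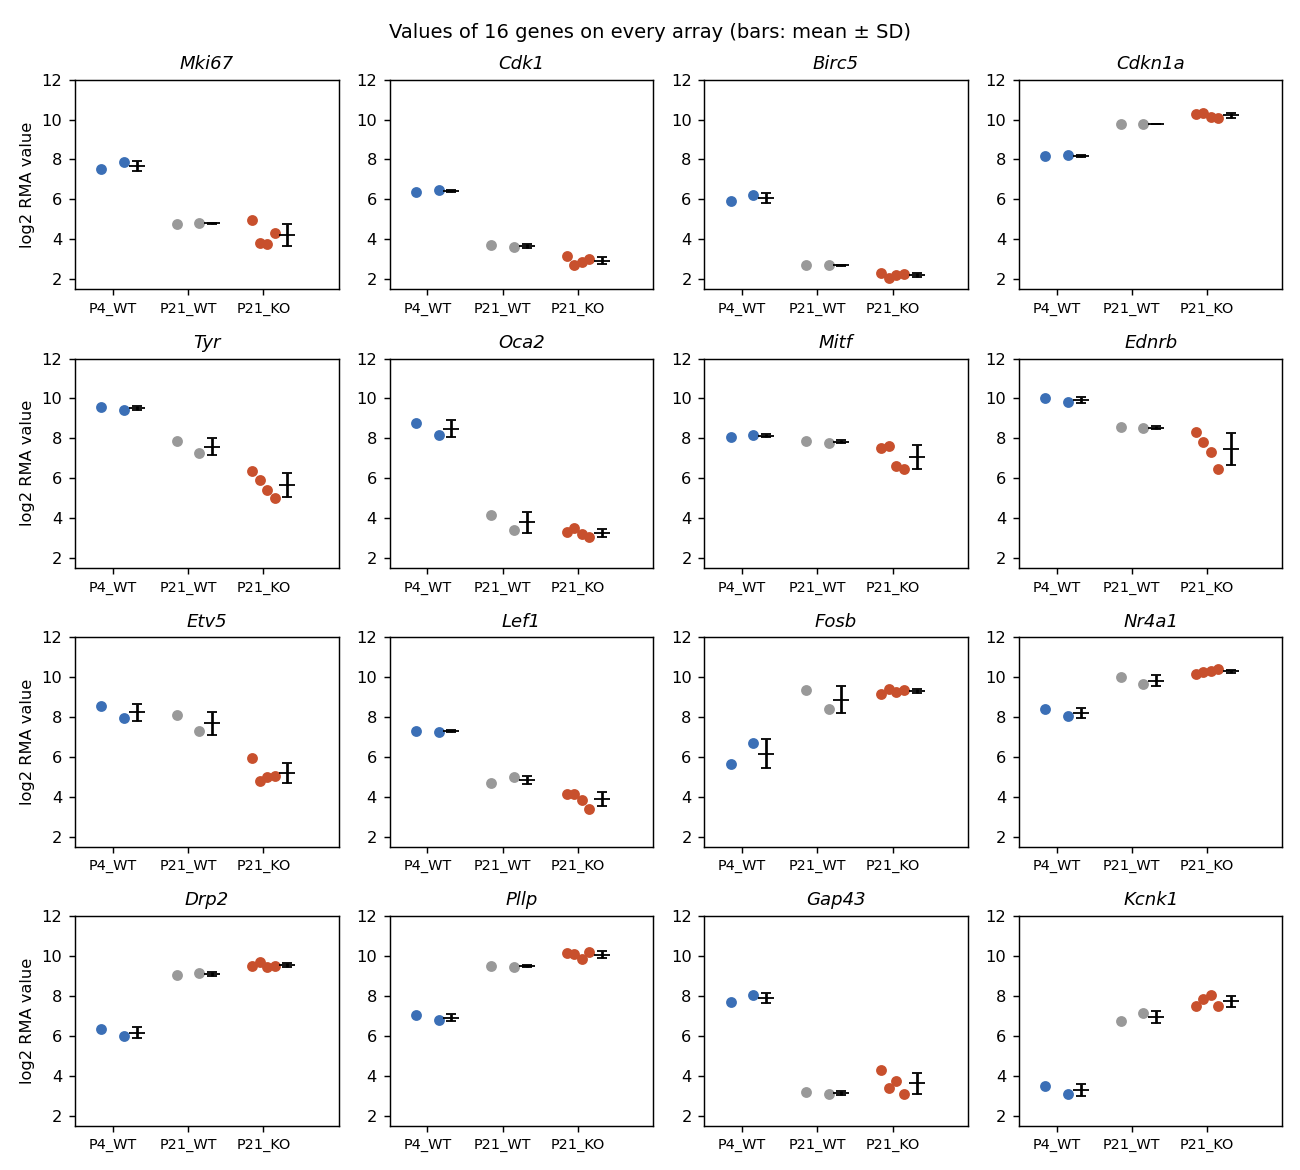
Log2 RMA values of 16 genes on each of the 8 arrays by group, with the mean and SD of the group beside its points. Mki67, Cdk1 and Birc5 fell and Fosb, Nr4a1, Drp2 and Pllp rose from P4_WT to P21_KO with P21_WT close to P21_KO, whereas Etv5 in P21_WT lay with P4_WT and Tyr in P21_WT lay between.

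**Figure D4:**
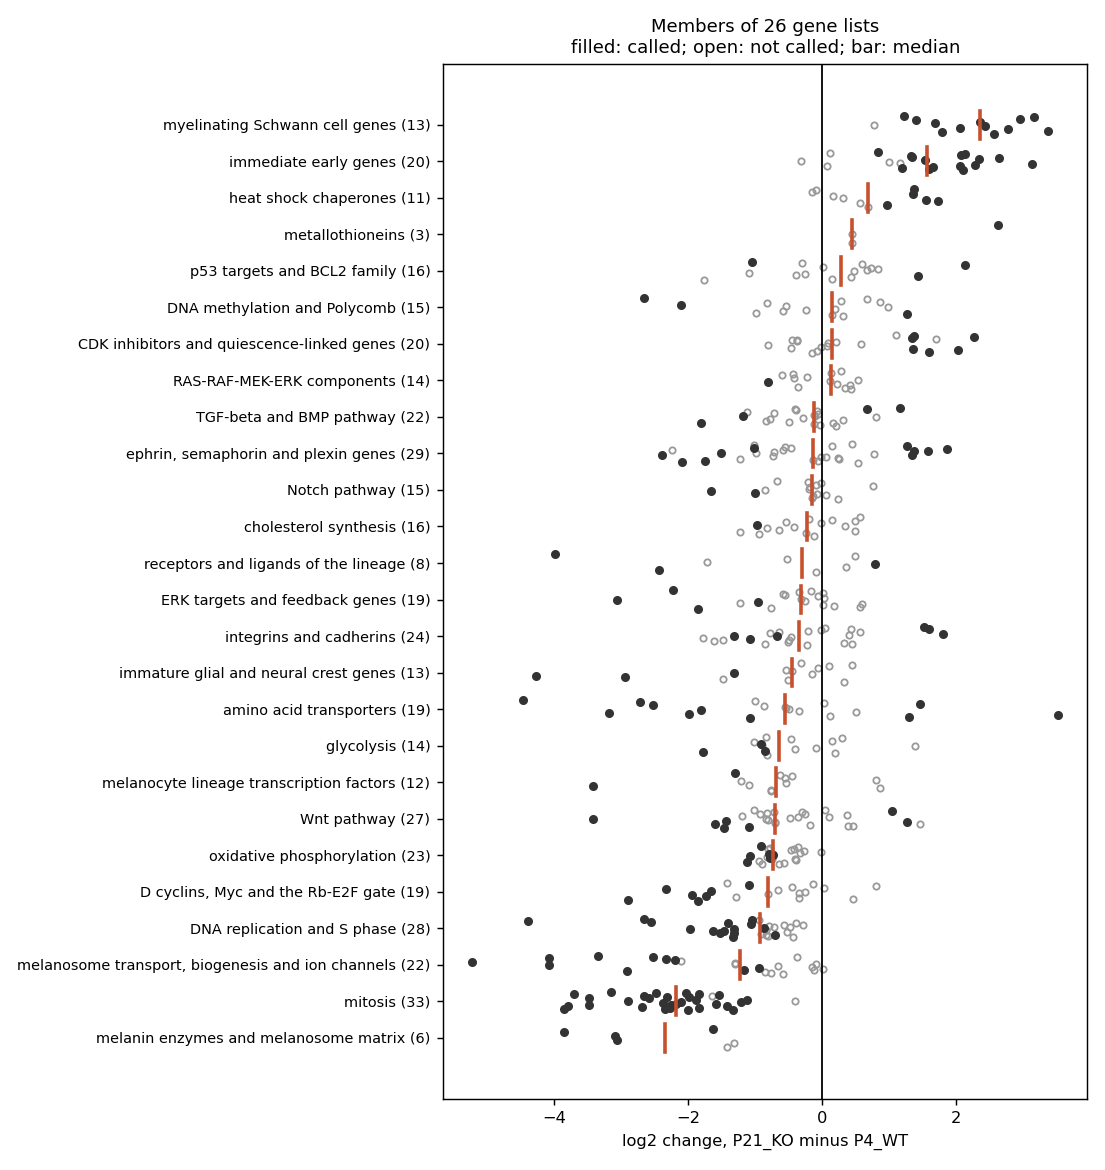
Log2 change (P21_KO minus P4_WT) of each measured member of 26 gene lists, with the number measured in brackets; filled points were called, open points were not, and the bar is the median. Mitosis and melanin genes lie to the left and myelin and immediate early genes to the right, while most pathway lists straddle 0.

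Of 27 Wnt pathway genes, 5 were called lower and 2 higher, with a median change of -0.69, and 15 had an unadjusted p under 0.05. Besides Lef1, the receptor Fzd1 fell by 1.60 ± 0.16 and Axin2, a feedback target of beta-catenin, by 1.46 ± 0.18. Axin2 read 6.22 and 6.52 in P4_WT and 5.17, 4.76, 4.86 and 4.87 in P21_KO (limma adjusted p = 0.0054), so the groups were about 1 unit apart. Ctnnb1, beta-catenin itself, differed by -1.08 ± 0.20 and kept its call in 2 of 6 fits without an array (limma adjusted p of up to 0.136). Fzd3, a receptor of the planar polarity branch, rose by 1.26 ± 0.22, a call lost without either P4_WT array and without P21_KO replicate 3 (limma adjusted p = 0.0856, 0.0961 and 0.0544). Without P4_WT replicate 2 the Wnt list had 9 genes called lower and none higher, and without P4_WT replicate 1 it had 4 lower and none higher. It had 3 lower without P21_KO replicate 2 or 3, and none higher without replicate 3. With P21_KO replicates 2 to 4 averaged it had 3 lower and 2 higher.

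In the TGF-beta and BMP pathway, 2 of 22 genes were called in each direction, beside 2.80% higher and 3.89% lower over the genes tested. Id2, a helix-loop-helix inhibitor induced by BMP, read 8.58 and 8.46 in P4_WT and 6.45, 6.89 and 6.57 in P21_KO replicates 1, 3 and 4, with replicate 2 slightly higher, a fall of 1.80 ± 0.20 (SE; limma adjusted p = 0.00405). Smad3, a transducer of TGF-beta signals, fell by 1.18 ± 0.17 with P21_KO values below the arrays' median, and lost its call without either P4_WT array (limma adjusted p = 0.0641 and 0.0545). The co-receptor Tgfbr3 rose by 1.17 ± 0.17 (adjusted p = 0.0554 by limma without P4_WT replicate 1), and the call of Tgfbr2 at 0.68 ± 0.15 failed in each fit without an array (up to 0.212). Of 15 Notch pathway genes, 2 were called lower, beside 3.89% over the genes tested. They were the transcriptional repressors Heyl and Hey2, lower by 1.66 ± 0.22 and 1.00 ± 0.23. Heyl missed the threshold without P4_WT replicate 2 (limma adjusted p = 0.056), and Hey2 kept its call in 1 of 6 such fits (up to 0.254).

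Surface and guidance genes changed in both directions. Of 24 integrins and cadherins, 3 were called higher and 3 lower. Itgb4, the hemidesmosome integrin that Schwann cells also use to hold laminin, read 5.62 and 5.55 in P4_WT and 7.17, 7.23, 7.36 and 6.99 in P21_KO, a rise of 1.60 ± 0.16 (limma adjusted p = 0.00264). Itgb8, the integrin subunit that helps to activate TGF-beta, rose by 1.53 ± 0.21. The laminin receptor subunit Itga7 rose by 1.81 ± 0.25 and missed the threshold without either P4_WT array (limma adjusted p = 0.0527 and 0.0549). Itga1, a collagen receptor subunit, differed by -1.07 ± 0.21 and kept its call in 1 of the 6 fits (up to 0.148). The integrins called lower went from 3 to 1 without P4_WT replicate 1 and to 0 without P4_WT replicate 2, without any of P21_KO replicates 2, 3 and 4, or with these 3 averaged.

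Of 29 ephrin, semaphorin and plexin genes, 5 were called higher and 5 lower. Nrp1, a co-receptor for semaphorins and VEGF, read 6.21 and 6.27 in P4_WT and 4.30, 3.54, 3.98 and 3.61 in P21_KO. It fell by 2.38 ± 0.24 (SE; limma adjusted p = 0.00283), and the ephrin Efna5 fell by 2.09 ± 0.18. Sema3b, a secreted semaphorin, read 6.33 and 5.85 against 7.95, 7.72, 8.17 and 8.03, a rise of 1.87 ± 0.20. The groups did not overlap in Nrp1 and Sema3b, as in each called gene. The kinase-dead Eph receptor Ephb6 rose by 1.34 ± 0.16 and the semaphorin receptor Plxnb3 by 1.38 ± 0.18. The number called was 4 or 5 lower and 3 to 5 higher without 1 array; it was 3 higher without P4_WT replicate 2. With P21_KO replicates 2 to 4 averaged it was 3 lower and 4 higher.

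Amino acid transporters split, with 7 of 19 called lower and 3 higher. Slc7a8 read 8.61 and 7.73 in P4_WT and 4.13, 4.44, 3.68 and 2.56 in P21_KO, whereas Slc36a2, a proton-coupled carrier of small amino acids, read 5.42 and 4.29 against 8.28, 8.13, 8.70 and 8.42. These are opposite changes of 22.1-fold and 11.5-fold in 2 carriers of small neutral amino acids (limma adjusted p = 0.0047 and 0.00199). Slc38a1, a glutamine carrier, fell by 3.18 ± 0.38. Slc36a4 fell by 1.98 ± 0.30 and Slc7a5 (LAT1) by 2.71 ± 0.49; both lost their calls without either P4_WT array (limma adjusted p of up to 0.081 and 0.106), and Slc7a5 also without P21_KO replicate 3 (0.0565). The list had 3 called lower without P4_WT replicate 1 or P21_KO replicate 3, and 4 without P4_WT replicate 2 or P21_KO replicate 2; it had 1 called higher without P4_WT replicate 2.

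Of 23 oxidative phosphorylation genes measured, 6 were called lower and none higher; each of the 23 had a negative change, with a median of -0.73. Uqcrfs1, the Rieske subunit of complex III, read 6.26 and 6.25 in P4_WT and 5.41, 5.22, 5.22 and 5.55 in P21_KO, a change of -0.90 ± 0.16 (limma adjusted p = 0.0193). Its groups were apart, as in each called gene. The list lost its calls without either P4_WT array, and 1, 2, 4 and 4 were called without P21_KO replicates 3, 2, 1 and 4. None was called with P21_KO replicates 2 to 4 averaged. Of 14 glycolysis genes, 3 were called lower, Pgk1 and Hk2, kinases of the pathway, and Ldha, lactate dehydrogenase, by 0.90 ± 0.15, 1.77 ± 0.30 and 0.85 ± 0.19. None of the 3 was called without P4_WT replicate 1 (limma adjusted p = 0.0857, 0.0722 and 0.226). Pgk1 also lost its call without P4_WT replicate 2 (limma adjusted p = 0.0773), Hk2 without P21_KO replicate 3 (0.052) and Ldha in each of the fits without an array. With P21_KO replicates 2 to 4 averaged 1 glycolysis gene was called lower and 1 higher. Of 16 cholesterol synthesis genes, 1 was called, a share close to the 6.69% called over the genes tested. It was Mvd, mevalonate decarboxylase, at -0.96 ± 0.22, and it was not called in any fit without an array.

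Stress, survival and chromatin genes changed in few members. Of 16 p53 targets and BCL2 family genes, 2 were called higher and 1 lower. Bcl2l1 (BCL-XL), which protects from apoptosis, read 4.76 and 4.83 in P4_WT and 5.90, 6.08, 6.37 and 6.57 in P21_KO, a rise of 1.43 ± 0.21 (limma adjusted p = 0.0112). Sesn1, a sestrin that restrains mTORC1, rose by 2.14 ± 0.33. Both had separate groups, as each called gene did. Bcl2l1 lost its call without either P4_WT array, with changes of 1.40 without replicate 1 and 1.47 without replicate 2. Sesn1 lost its call without P4_WT replicate 2, with a change of 1.94. Zmat3, an RNA-binding p53 target, differed by -1.04 ± 0.20. It kept its call in 2 of the 6 fits without an array (limma adjusted p = 0.0671 without P21_KO replicate 3). Of 15 DNA methylation and Polycomb genes, Hells, a chromatin remodeller of dividing cells, fell by 2.10 ± 0.22 alongside Uhrf1, and the Polycomb protein Cbx7 rose by 1.28 ± 0.19 (limma adjusted p = 0.0645 without P4_WT replicate 1). Limma called 0 of 11 interferon response genes, and 0 had an unadjusted p under 0.05.

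Of 3 metallothioneins, metal-binding proteins, 1 was called. Mt3, the neural form, read 3.72 and 3.82 in P4_WT, 5.36 and 5.29 in P21_WT and 6.05, 6.42, 6.57 and 6.58 in P21_KO. The 4 knockout arrays were the highest of the 8, and the rise from P4_WT was 2.63 ± 0.19 (SE; 6.20-fold; limma adjusted p = 0.00104). Mt1 and Mt2, the widely expressed forms, were bright in both groups and differed by 0.45 ± 0.14 and 0.44 ± 0.20, neither of which was called (limma adjusted p = 0.122 and 0.286).

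Most markers of cells that the sort should remove were not called. Even so, the hair shaft list above had 6 of 14 called lower. The endothelial, fibroblast and hair follicle stem cell lists also had larger shares called than the 6.69% over the genes tested. Limma called 0 of 16 macrophage, dendritic and T cell genes (2 at an unadjusted p under 0.05) and 0 of 7 mast cell genes (0 unadjusted), but 10 and 5 were called lower without P4_WT replicate 1, when the array rich in these markers alone stood for the young group. Ptprc, the leukocyte antigen CD45, read 2.83 and 5.17 in P4_WT and 2.64, 2.48, 2.63 and 2.78 in P21_KO, and Cma1, mast cell chymase, read 2.36 and 5.92 against 2.50, 2.38, 2.60 and 2.60. Cdh5, the endothelial cadherin, read 4.69 and 7.88 against 3.86, 3.84, 3.58 and 4.52. In each of these genes P4_WT replicate 2 was the high array. The knockout arrays were below the arrays' median for Ptprc and Cma1, and above it for Cdh5. Of 13 endothelial genes 2 were called lower, Eng, a TGF-beta co-receptor, and Sox18, at -1.92 ± 0.30 and -1.70 ± 0.39; neither was called without P4_WT replicate 2 (limma adjusted p = 0.0861 and 0.2), whereas 8 of the list were called without P4_WT replicate 1. The fibroblast list had 2 of 11 called lower and 1 higher. Postn, a matrix protein, fell by 1.81 ± 0.22, from 9.05 and 9.26 to 7.77, 7.30, 7.28 and 7.03, and Fbln1 by 1.66 ± 0.24 (limma adjusted p = 0.0675 without P4_WT replicate 2). Mfap5, a microfibril protein, differed by 1.95 ± 0.34, a call lost without either P4_WT array and without P21_KO replicate 3 (up to 0.116). Krtdap, a keratinocyte differentiation protein, was the 1 of 14 keratinocyte genes called, a share close to the 6.69% over the genes tested. Its change was 1.44 ± 0.32, and the call held in 1 of 6 fits without an array (limma adjusted p = 0.105 without P21_KO replicate 3). Krt14, the basal keratin, read 8.89 and 8.17 in P4_WT and 9.11, 8.53, 8.70 and 9.60 in P21_KO, well above background on each array. Limma also called 0 of 6 sebocyte, 0 of 7 pericyte, 0 of 7 adipocyte and 0 of 8 skeletal muscle genes, with 1, 1, 2 and 0 at an unadjusted p under 0.05. The 1 of 7 hair follicle stem cell genes called was Nfatc1, a factor that keeps these cells quiescent, which rose by 1.70 ± 0.25 and missed the threshold without P4_WT replicate 1 (limma adjusted p = 0.0672). The part of these cells in the called genes was not tested.

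P21_KO and P21_WT, which have the same age, were compared in a fit on the 8 arrays. No gene of 22180 was called by limma (0%), while 1447 (6.52%) had an unadjusted p under 0.05. The count was 15 without P21_WT replicate 2, 2 without P21_WT replicate 1 and 1 without P21_KO replicate 1. This comparison shares the P21_KO arrays with the one above, so the values are given side by side. Tyr differed by -1.91 from P21_WT (limma adjusted p = 0.368) and by -3.85 from P4_WT. Met differed by -2.37 and -3.99, Etv5 by -2.50 and -3.06, and Mt3 by 1.08 and 2.63, with limma adjusted p = 0.329, 0.284 and 0.284 against P21_WT. For Birc5 the differences were -0.49 and -3.85, for Drp2 0.45 and 3.38, for Oca2 -0.52 and -5.21, and for Nr4a1 0.46 and 2.08. None of these differences from P21_WT was called. All 8 genes were called against P4_WT, so their larger differences from P4_WT than from P21_WT are favoured by that choice. They do not show to which group P21_KO is closer. Oca2 and Birc5 were near or below the arrays' median in both 21-day groups, so their differences between these groups cannot be sized.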

How the data were processed

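RMA log2 values, deposited by the authors, came from Affymetrix Expression Console according to the submitters' processing notes; its version is not given in the sources used here. RMA subtracts background, brings the arrays to one distribution and summarises probe sets, which compresses differences near the floor. Of 41345 rows, 23521 had 1 gene symbol in the platform annotation; where a gene had several probe sets, the brightest on average over the 8 arrays stood for it, which gave 22180 genes. P21_KO minus P4_WT was fitted on its 6 arrays (4 residual degrees of freedom) and P21_KO minus P21_WT on the 8 arrays (5), with lmFit and eBayes of limma 3.58.1 in R 4.3.3. P-values are two-sided and adjusted by Benjamini-Hochberg over the genes, with 0.05 as the threshold for a call. The script was tested on simulated data. Replicates are biological per the labels; the p-values cover the spread among them, and the number of arrays limits the precision. With 1 P4_WT array left out, the lone array is assumed to vary like the knockout arrays.

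The lists hold 616 genes, of which 569 were measured. Named were the 12 largest rises and falls among called genes with separate groups, up to 4 called members of each list with the smallest p (without a called member, 2), and Braf, Araf, Mitf, Sox10, Pax3, Kit, Ednrb, Tyr, Dct, Ngfr and Mki67 where measured. The ranking by size skipped unnamed gene models, olfactory, vomeronasal and taste receptors, microRNA and small RNA genes, and immune receptor segments. Other list members in the text were picked after their values were seen, and some that the rule gives are left out of it. The comparison and the lists were chosen with earlier results of these data known. Replicate numbers were not taken as pairs. Alternatives changed the arrays fitted, the prior, array weights, the normalization (3 ways), dim genes, probe sets, blocks, sex chromosomes and thresholds, and left out each array. Promoter windows are RefSeq's, matched by symbol; 16990 of the tested genes had one.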

Additional observations from a re-analysis of the deposited data

Results flagged for a closer look

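In 11 of 187 values checked over the 4 P21_KO arrays, the gap of 1 array to the nearest other one was a larger part of the range than Dixon's 95% limit for 4 arrays; chance gives about 1 in 20. P21_KO replicate 4 stood apart in 4 of them: Rrm2 was low at 3.06 against 4.15 to 4.25 (ratio 0.918), Fzd3 low at 6.41 against 6.96 to 7.06 (0.84), Fos high at 9.59 against 9.20 to 9.26 (0.842), and the mean of the macrophage, dendritic and T cell list high at 3.43 against 3.06 to 3.12 (0.83). Replicate 1 was high in Tfap2b at 7.88 against 7.40 to 7.48 (ratio 0.839), in Tgfbr2 at 6.08 against 5.91 to 5.94 (0.837) and in Plxnb3 at 7.94 against 7.49 to 7.51 (0.946). Replicate 2 was low in Itgb8 at 8.85 against 8.97 to 8.99 (ratio 0.89), in Mag at 6.90 against 7.48 to 7.50 (0.963) and in S100b at 7.13 against 8.40 to 8.59 (0.869). Replicate 3 was high in Hey2, at 4.58 against 3.99 to 4.04 (ratio 0.914).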

How the results depend on the processing

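The 1484 called genes became 731 with P21_KO replicates 2 to 4 averaged (669 of them also called before), 437 at an adjusted p under 0.01 and 2318 under 0.10, and ranged from 740 to 1241 without 1 array. With the replicate number as a replicate block, limma called 0 genes (3748 at an unadjusted p under 0.05); that fit leaves 1 residual degree of freedom, and same-numbered arrays deviated from their group means with correlations of -0.03 and 0.01, so the numbers show no pairing. Under the replicate block the mitosis and replication, pigment, immediate early and myelin counts were 0 as well. At an adjusted p under 0.01, mitosis and replication genes called lower went from 45 to 27 and pigment genes from 14 to 8; with P21_KO replicates 2 to 4 averaged, immediate early genes went from 15 to 8. Without 1 array these counts ranged from 28 to 36, 8 to 14 and 10 to 14, and the myelin count, which was added after seeing the data, from 11 to 12. P21_KO minus P21_WT gave 1 gene with the averaged arrays and 0 to 15 without 1 array. Under the other alternatives these 6 counts stayed within 1.5 times. Smaller lists moved more. Oxidative phosphorylation genes called lower went from 6 to 10 with all 8 arrays in one fit. Glycolysis genes went from 3 to 6 in that fit or with dim genes left out, and to 5 with array weights or the label number as a random block. Endothelial genes went from 2 to 1 with robust eBayes, cyclic loess or quantile normalization. In the other lists where a count moved by more than 1.5 times outside the averaged, blocked and one-array-out fits at the same threshold, it was of at most 2 calls. Quantile normalization raised the share of called genes that were higher from 41.8% to 51.6%.

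Of the 129 called genes named, 71 kept the call in each of the 6 fits without 1 array, 87 with averaged arrays and 129 with the label number as a random block, and 0 with a replicate block; none reversed. The random block estimated a correlation of -0.02 between arrays with the same label number. That fit therefore made no allowance for a shared origin, and the calls kept under it do not bear on that question. Signs reversed in genes that were not called. Without 1 array, Ngfr (0.11) ranged from -0.22 without P4_WT replicate 2 to 0.45, and was -0.04 without P21_KO replicate 1. Cma1 (-1.62) ranged from -3.40 to 0.16, the latter without P4_WT replicate 2. Myc (0.04) ranged from -0.11 without P4_WT replicate 1 to 0.19, and was -0.05 without P21_KO replicate 2 and -0.05 without P21_KO replicate 3. The cause was not tested.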
